A study of Mus musculus with 8 samples.

Results

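Ribosome-protected fragments (RPF, or footprints, the short pieces of mRNA that a translating ribosome shields from nuclease) and total RNA were sequenced from testes of Miwi-null and wild-type (WT) C57BL/6 mice at postnatal day 24. Miwi, encoded by Piwil1, is a PIWI protein of meiotic and postmeiotic germ cells. The samples formed 4 groups of 2 libraries each: Miwi-null RPF, Miwi-null RNA, WT RPF and WT RNA, and all 8 came from whole testes of the same strain and age. The genes described here are 9 enzymes and carriers of glucose breakdown whose germ cell forms are known from sperm: Slc2a3, Hk1, Aldoart1, Aldoart2, Gapdhs, Pgk2, Eno4, Ldhc and Pdha2. They were chosen by name among 21949 genes of the deposited tables, and each was represented by its transcript with the highest mean count. All 9 were present and all 9 passed the filter on low counts, as did 16051 genes in all. Hk1 and Slc2a3 are also transcribed in other cells, and the other 7 are known mainly from germ cells.

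Glycolysis splits glucose into pyruvate, and lactate dehydrogenase turns pyruvate into lactate while restoring the cofactor that the pathway consumes. Sperm depend on this pathway for the ATP that drives the tail. Some of its steps are carried out there by isoforms known mainly from germ cells. Several of these genes are intronless copies of somatic genes: Pgk2 of Pgk1, Pdha2 of Pdha1, and Aldoart1 and Aldoart2 of Aldoa. Pgk1 and Pdha1 lie on the X chromosome, which is silenced in meiosis. Pgk2 mRNA is a textbook case of a message that is made during meiosis, stored, and translated mostly in spermatids, whereas Ldhc is translated from meiosis onward.

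The 100 bases before the annotated start are shown for genes that stood for different outcomes in the results: Gapdhs and Hk1, which lost RNA, Pgk2, which lost footprints, and Ldhc, whose changes did not pass the test. All are RefSeq sequences of GRCm38.p6, read on the strand of the gene. Windows of 300 bases were searched, 250 before and 50 after the start, and 7 of the 9 genes had 10 windows in all. Capitals mark the motifs searched on both strands: the full cAMP response element TGACGTCA, its core TGACG, which is also part of the full element, the related TGACATCA, the GC box GGGCGG and the CCAAT box. TGACATCA was added after the windows had been read.
Gapdhs, chr7:30739408-30739507, minus strand: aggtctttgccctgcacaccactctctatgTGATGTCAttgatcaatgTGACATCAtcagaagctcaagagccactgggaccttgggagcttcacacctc
Gapdhs, second start, chr7:30743682-30743781, minus strand: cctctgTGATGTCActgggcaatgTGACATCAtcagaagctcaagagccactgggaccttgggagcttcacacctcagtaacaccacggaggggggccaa
Hk1, second start, chr10:62379909-62380008, minus strand: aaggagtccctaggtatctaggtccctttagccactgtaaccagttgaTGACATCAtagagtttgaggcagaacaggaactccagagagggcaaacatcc
Pgk2, chr17:40208610-40208709, minus strand: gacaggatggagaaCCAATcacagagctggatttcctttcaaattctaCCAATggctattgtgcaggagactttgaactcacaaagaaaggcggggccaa
Ldhc, chr7:46861163-46861262, plus strand: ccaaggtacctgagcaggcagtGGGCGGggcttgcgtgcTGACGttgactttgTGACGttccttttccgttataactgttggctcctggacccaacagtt

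Both Gapdhs starts carried 2 copies of TGACATCA, at 70 and 52 bases before the one start and 94 and 76 before the other, and the 2 windows were 92.5% identical over 268 aligned bases. Pgk2 had CCAAT at 86 and 52 bases before its start. Ldhc had TGACG at 61 and 47 bases and GGGCGG at 78 bases before its start. The full element was in 0 of the 10 windows, and in 1.79% of 32851 windows of the same length. TGACATCA was in 3 of the 10 against 3.62% of all windows, TGACG in 2 against 20.8%, GGGCGG in 1 against 35.7% and CCAAT in 2 against 37.4%. Since TGACATCA was picked from these windows, and 2 of its 3 are the Gapdhs pair, its share cannot show an excess. The other windows of Hk1 and Ldhc, which are not printed, held none of the 5 motifs. Aldoart2 and Pdha2 also lost RNA, and their windows, not printed either, held no TGACATCA. These matches describe the letters, and no binding was measured.

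Library totals over the transcripts used ran from 11130949 to 15592797 counts for RNA and from 11662661 to 28334622 for footprints, so that a single count stood for 0.034 to 0.0893 CPM (counts scaled to a common library size). Piwil1 had 46 and 26 counts in Miwi-null RNA, against 8215 and 7165 in WT RNA, as the genotypes are labelled. The series text calls the libraries biological samples but ties none to an animal, so each p-value reflects library-to-library spread, part of which may be technical. The Miwi-null RNA pair lay close to counting noise, at a chi-square per gene of 1.18 (p = 1.9e-50 over 15545 genes), against 3.76 in WT RNA, 21.9 in Miwi-null footprints and 43.7 in WT footprints. Presence of elongating spermatids at postnatal day 24 was not examined here. Genes used as their markers fell in 8 of 8 cases in RNA, in footprints and in footprints relative to RNA. Their summed level was 1665 and 1671 CPM in Miwi-null RNA against 14603 and 14445 CPM in WT RNA, and 67.3 and 67.5 CPM in Miwi-null footprints against 6594 and 6436 CPM in WT footprints. Markers of round spermatids summed to 1447 and 1466 CPM in Miwi-null RNA against 2139 and 2075 CPM in WT RNA, with 3 of 10 lower, and to 1402 and 1434 CPM in Miwi-null footprints against 2400 and 2230 CPM in WT footprints, with 7 of 10 lower and 1 higher. In footprints relative to RNA, 2 of 10 round spermatid markers fell and 0 rose. None of the spermatid markers was at 0 in any library. Pachytene markers rose in 6 of 8 cases in RNA and summed to 1600 and 1578 CPM in Miwi-null RNA against 983 and 1089 CPM in WT RNA. In footprints 2 of these 8 rose and 0 fell, and 4 of 8 fell in footprints relative to RNA. Pachytene footprints summed to 2972.6 and 2960.5 CPM in Miwi-null testes against 3010.8 and 3161.9 CPM in WT testes. Of all genes, 20.8% were lower and 16.5% higher in RNA by the calling rule given below. In footprints 13.4% were lower and 12.0% higher, and in footprints relative to RNA 7.56% and 7.36%. The part of these markers in the results below was not tested. In bulk tissue fewer cells of a type and less RNA per cell cannot be told apart.

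In the Miwi-null testes 4 of the 9 genes fell in RNA (Hk1, Aldoart2, Gapdhs and Pdha2) and Eno4 rose. In footprints 5 fell (Hk1, Aldoart1, Aldoart2, Gapdhs and Pgk2) and Eno4 rose. In translational efficiency (TE, footprints relative to RNA) Pgk2 fell and Hk1 rose, and the other 7 did not pass the test. Changes were called at an edgeR adjusted p under 0.05 over all genes tested. By that rule 20.8% of all genes were lower and 16.5% higher in RNA, 13.4% lower and 12.0% higher in footprints, and 7.56% lower and 7.36% higher in TE. The median log2 change of the 9 genes was -0.27 in RNA and -0.42 in footprints, beside -0.07 and -0.00464 over all genes. Of all genes called, 44.15% were higher in RNA and 49.3% in TE. Those shares were 55.1% in RNA and 29.2% in TE with library totals alone in place of TMM, and 39.0% in TE with TMM within each assay.

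**Figure D1:**
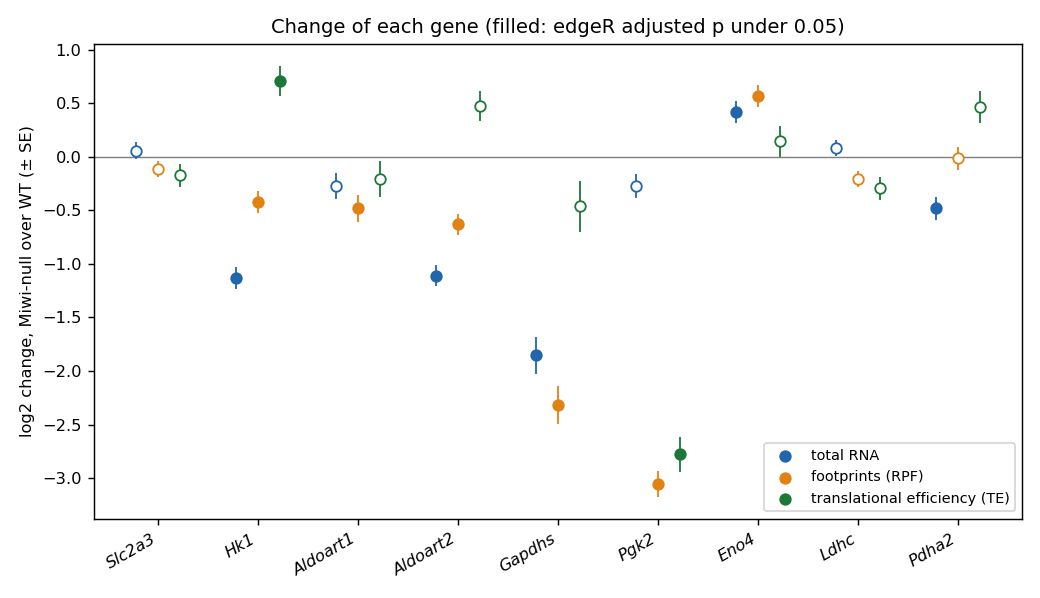
Log2 change of each gene, Miwi-null over WT, in total RNA (blue), footprints (orange) and TE (green), with standard errors (SE) from edgeR and 2 libraries per group; filled points passed at an adjusted p under 0.05. Pgk2 had the lowest footprint change of the 9 at -3.05 beside an RNA change of -0.27, and Eno4 alone was filled above 0 in RNA and footprints.

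Glucose enters spermatocytes and spermatids largely through GLUT3, the transporter encoded by Slc2a3 (ENSMUSG00000003153.10; chromosome 6, 122727809 to 122802363, GRCm38). Slc2a3 RNA was at 917.9 and 942.3 CPM in Miwi-null testes and 917.6 and 867.9 CPM in WT testes. Its footprints were at 1552 and 1548 CPM in Miwi-null testes and 1691 and 1666 CPM in WT testes. The RNA libraries of the genotypes nearly touched, and both Miwi-null footprint libraries lay below both WT ones. Neither change passed, at 0.06 ± 0.08 (SE) in RNA and -0.11 ± 0.08 in footprints on the log2 scale (edgeR adjusted p = 0.581 and 0.312). With the 4 RNA libraries fitted alone the RNA change passed (0.12, adjusted p = 0.0281). A pseudogene, Gm4482, overlaps Slc2a3, and reads of the 2 may not be separable.

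Hexokinase traps glucose as glucose 6-phosphate, and germ cells use transcripts of Hk1 whose protein lacks the mitochondrial anchor of the somatic form (ENSMUSG00000037012.18; chromosome 10, 62268855 to 62379920, minus strand). Hk1 RNA was at 736.3 and 710.1 CPM in Miwi-null testes against 1632 and 1539 CPM in WT testes. Hk1 footprints were at 227 and 205.1 CPM in Miwi-null testes against 268.7 and 310.1 CPM in WT testes. Both assays separated the genotypes, with the wider gap in RNA. RNA fell by 1.13 ± 0.10 on the log2 scale and footprints by 0.42 ± 0.10, so that TE rose by 0.71 ± 0.14 (edgeR adjusted p = 8.19e-05, 0.0161 and 0.0145). The footprint call was lost without Miwi-null RPF replicate 2 (adjusted p = 0.0962) and with footprints fitted alone (0.137), and the TE call was lost without any single RNA library (0.0542 to 0.0964).

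Hk1 had 20 transcripts in the tables, 18 of them with a mean count of at least 10. The 4 long ones, with coding lengths of 2751 to 2835 bases, had mean counts of 9195 to 10570 and moved alike. Their log2 ratio of mean FPKM, Miwi-null over WT, was -1.07 to -1.05 in RNA and -0.48 to -0.47 in footprints. The other 14 were fragments of 148 to 670 bases. Of these, 10 transcripts of 148 bases had identical footprint counts of 137 and 357 in Miwi-null libraries and 502 and 190 in WT libraries, so they share the same fragments. Somatic and germ cell forms were not separated here. An antisense lncRNA gene, Hk1os, overlaps Hk1, and whether the counting used strand is not given in the sources used here.

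Aldolase splits the 6-carbon sugar, and mice carry 2 germ cell copies of it beside Aldoa. Aldoart1 (ENSMUSG00000059343.4; chromosome 4, 72850583 to 72852634) had RNA at 77.7 and 75.2 CPM in Miwi-null testes and 97.7 and 87 CPM in WT testes. Its footprints were at 14.11 CPM in both Miwi-null libraries and at 21.5 and 17.7 CPM in the WT libraries. Both WT libraries were above both Miwi-null ones in each assay. Its footprints fell by 0.48 ± 0.13 on the log2 scale (edgeR adjusted p = 0.0243), while the RNA change of -0.27 ± 0.12 did not pass (0.101), though it did with RNA fitted alone (-0.21, adjusted p = 0.0137) and without WT RPF replicate 2 (-0.28, adjusted p = 0.0427). The footprint call was lost in 5 of 8 fits that left out a library, namely either Miwi-null RNA library, either Miwi-null RPF library and WT RPF replicate 1 (adjusted p = 0.0539 to 0.149), and with footprints fitted alone (0.122).

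Aldoart2 (ENSMUSG00000063129.1; chromosome 12, 55565205 to 55566896, plus strand) stood at 178.1 and 176.1 CPM in Miwi-null RNA against 395.9 and 368.6 CPM in WT RNA. Aldoart2 footprints were at 30.3 and 31.1 CPM in Miwi-null testes against 50.7 and 44.4 CPM in WT testes. The genotypes did not overlap in either assay. RNA fell by 1.11 ± 0.10 on the log2 scale (edgeR adjusted p = 7.8e-05) and footprints by 0.63 ± 0.10 (adjusted p = 0.00231). Its TE change of 0.48 ± 0.14 missed the threshold (adjusted p = 0.0535) but crossed it without WT RPF replicate 1 (0.55, adjusted p = 0.0230). The aldolase genes are close copies, and how fragments that match several of them were counted is not given in the sources used here.

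Gapdhs, the sperm form of glyceraldehyde 3-phosphate dehydrogenase that is bound to the fibrous sheath of the tail, lost both RNA and footprints (ENSMUSG00000061099.12; chromosome 7, 30729779 to 30744791, minus strand). Its RNA was at 344.3 and 346.1 CPM in Miwi-null testes against 1268 and 1229 CPM in WT testes. Gapdhs footprints were at 65.9 and 44.9 CPM in Miwi-null testes against 245.6 and 302.9 CPM in WT testes. Every WT library was well above every Miwi-null library of the same assay. RNA was 3.62-fold lower (log2 change -1.85 ± 0.17) and footprints 4.98-fold lower (-2.32 ± 0.18) in the Miwi-null testes, with edgeR adjusted p-values of 1.03e-04 and 3.14e-05. The TE change of -0.46 ± 0.24 did not pass (adjusted p = 0.232). It did without Miwi-null RPF replicate 1, at -0.75 (adjusted p = 0.0338). Gapdhs had 2 long coding transcripts, whose log2 ratios of mean FPKM were -1.84 and -1.79 in RNA and -2.36 and -2.35 in footprints. Sbsn overlaps Gapdhs on the opposite strand.

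Pgk2, the germ cell phosphoglycerate kinase that makes the first ATP of the pathway, lost footprints without a matching loss of RNA (ENSMUSG00000031233.6; chromosome 17, 40207018 to 40208609, minus strand). Its footprints were at 18.9 and 15.1 CPM in Miwi-null testes against 136.6 and 142 CPM in WT testes. These levels rested on 211 and 435 counts in the Miwi-null libraries and 4024 and 2503 counts in the WT libraries. Its RNA was at 410.4 and 412.1 CPM in Miwi-null testes against 475.8 and 518.2 CPM in WT testes. The footprint groups lay far apart, and the RNA groups lay close to each other without overlap. Footprints were 8.30-fold lower in the Miwi-null testes (log2 change -3.05 ± 0.12, edgeR adjusted p = 8.95e-07). TE was 6.87-fold lower (-2.78 ± 0.16, adjusted p = 7.8e-05). The RNA change of -0.27 ± 0.11 missed the threshold (adjusted p = 0.0836) but crossed it with the RNA libraries fitted alone (-0.21, adjusted p = 0.00111), without Miwi-null RPF replicate 1 (0.0413) and without WT RPF replicate 2 (0.0455). Pgk2 and Pdha2 are close copies of X-linked genes, so fragments shared with Pgk1 or Pdha1 leave their levels uncertain. Over the 8 fits that left out a library, the footprint change was -3.21 to -2.87 and the TE change -2.93 to -2.66, with adjusted p-values of at most 3.62e-05 and 0.00366.

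Eno4, a testis enolase needed for a normal sperm tail in mice, was the gene that rose in both assays (ENSMUSG00000048029.10; chromosome 19, 58934058 to 58971421, plus strand). Its RNA was at 96 and 94.9 CPM in Miwi-null testes and 68.9 and 73.8 CPM in WT testes. Footprints of Eno4 were at 110.2 and 106 CPM in Miwi-null testes and 68.1 and 78 CPM in WT testes. All 4 Miwi-null libraries were above the WT libraries of the same assay. RNA rose by 0.42 ± 0.10 on the log2 scale and footprints by 0.57 ± 0.10 (edgeR adjusted p = 0.0126 and 0.00409). The RNA call was lost without either Miwi-null RNA library or WT RNA replicate 1 (adjusted p = 0.0792 to 0.1003), and the footprint call with footprints fitted alone (0.0525). TE changed by 0.15 ± 0.14 and did not pass (0.543). Hspa12a overlaps Eno4 on the opposite strand.

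Ldhc, the lactate dehydrogenase of germ cells, had the most footprints of the 9 genes (ENSMUSG00000030851.15; chromosome 7, 46861263 to 46878147, plus strand). By FPKM, which divides by coding length, it ranked 2 of 16051 genes in Miwi-null footprints and 1 in WT footprints, and 4 in Miwi-null RNA and 13 in WT RNA. Its footprints were at 9836 and 9473 CPM in Miwi-null testes against 11198 and 11072 CPM in WT testes. Its RNA was at 2487 and 2490 CPM in Miwi-null testes against 2254 and 2433 CPM in WT testes. Miwi-null libraries were thus below WT in footprints and above WT in RNA, by small margins. The footprint change of -0.21 ± 0.08 and the RNA change of 0.09 ± 0.08 did not pass (edgeR adjusted p = 0.0785 and 0.4), nor did the TE change of -0.29 ± 0.11 (0.101). With library totals alone the footprint change (-0.25, adjusted p = 0.0446) and the TE change (-0.44, adjusted p = 0.0324) passed, and so did the RNA change with RNA fitted alone (0.15, adjusted p = 0.00748).

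Pdha2, the germ cell E1 alpha subunit of pyruvate dehydrogenase, which feeds pyruvate into the mitochondrial cycle, fell in RNA alone (ENSMUSG00000047674.2; chromosome 3, 141210004 to 141212355, minus strand). Its RNA was at 172.8 and 180.2 CPM in Miwi-null testes against 236.7 and 255.5 CPM in WT testes. Footprints of Pdha2 were at 386.3 and 439.3 CPM in Miwi-null testes and 444.5 and 390.1 CPM in WT testes. The RNA groups were apart and the footprint groups overlapped. RNA fell by 0.48 ± 0.11 on the log2 scale (edgeR adjusted p = 0.00832), a call lost without either Miwi-null RNA library or WT RNA replicate 2 (0.0565 to 0.0849). Footprints changed by -0.02 ± 0.11 (adjusted p = 0.935) and TE by 0.46 ± 0.15 (0.0724). The TE change passed without WT RPF replicate 1 (0.53, adjusted p = 0.0371).

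**Figure D2:**
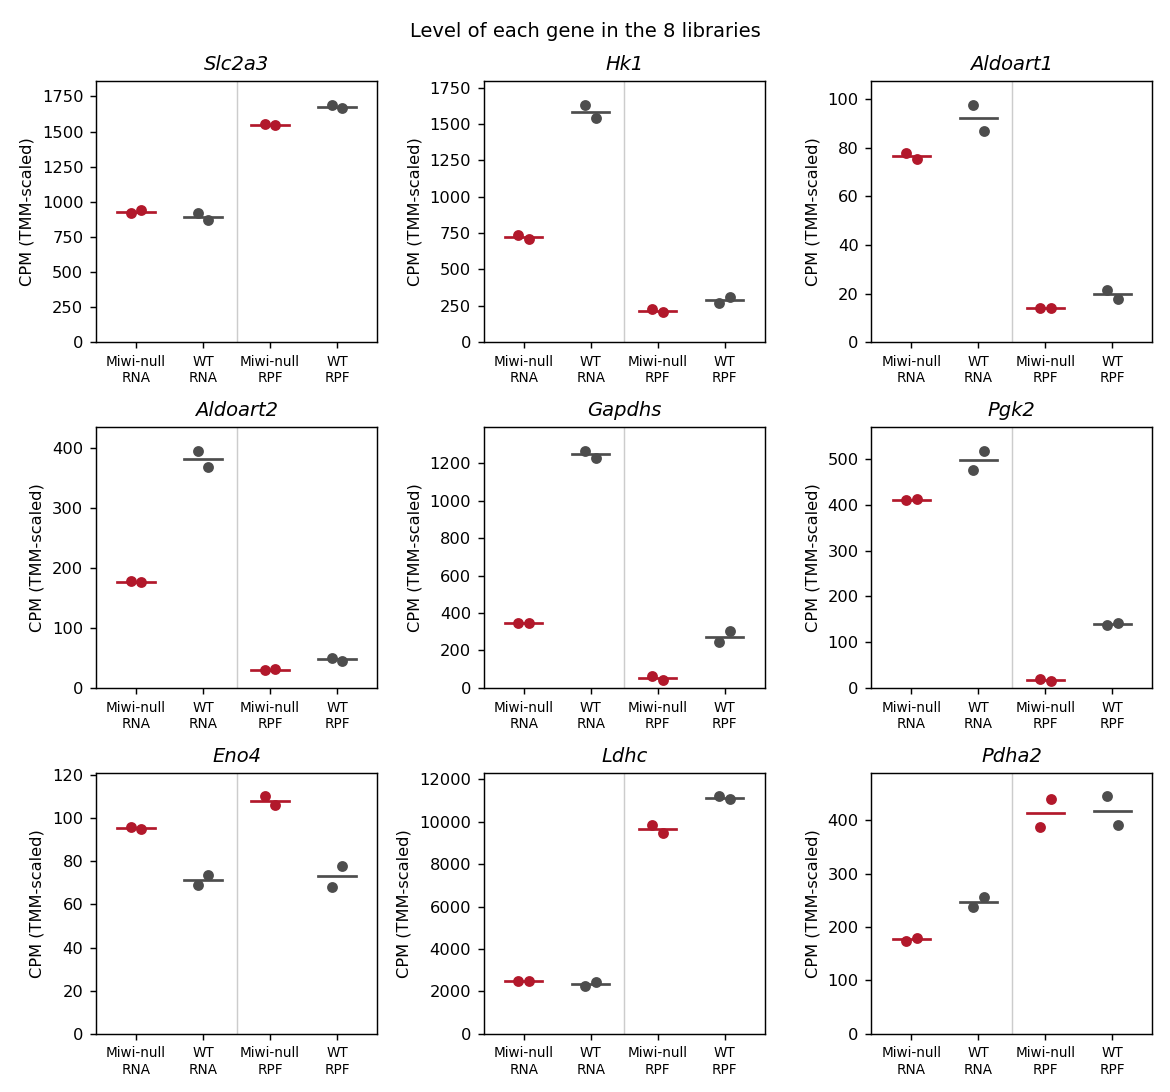
TMM-scaled CPM of each gene in the 8 libraries (points) with the group mean (line), Miwi-null in red and WT in grey, total RNA on the left and footprints (RPF) on the right of each panel; each vertical axis starts at 0 and has its own range. Gapdhs was lower in the Miwi-null libraries in both assays, whereas for Pgk2 the footprints fell to 18.9 and 15.1 CPM, against 136.6 and 142 CPM in WT, and the RNA groups lay close.

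Levels of different genes were compared in the authors' FPKM. In RNA, Ldhc led at a mean of 2069 FPKM in Miwi-null testes and 1860 FPKM in WT testes. In Miwi-null RNA the order continued with Slc2a3 (520.9), Pgk2 (272.3), Gapdhs (216.6), Hk1 (211.3), Aldoart2 (134.3), Pdha2 (124.6), Aldoart1 (50.4) and Eno4 (42.7 FPKM). In WT RNA it ran Gapdhs (747.9), Slc2a3 (477.4), Hk1 (442.2), Pgk2 (314.2), Aldoart2 (276.9), Pdha2 (165.9), Aldoart1 (58.1) and Eno4 (30.4 FPKM). Gapdhs thus stood in place 4 in Miwi-null RNA and in place 2 in WT RNA, and in Miwi-null RNA it lay beside Hk1, at 215.8 and 217.5 FPKM beside 214.8 and 207.7 FPKM.

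Footprint levels spread more widely than RNA levels. In Miwi-null footprints Ldhc stood at a mean of 9260 FPKM, followed by Slc2a3 (1002), Pdha2 (337), Hk1 (72.7), Eno4 (55.7), Gapdhs (39.9), Aldoart2 (26.9), Pgk2 (12.9) and Aldoart1 (10.7 FPKM). In WT footprints the order was Ldhc (11024), Slc2a3 (1119), Pdha2 (351.4), Gapdhs (204.2), Pgk2 (109.7), Hk1 (100.4), Aldoart2 (43), Eno4 (38.8) and Aldoart1 (15.4 FPKM). Among neighbours in these orders, Aldoart2 and Eno4 overlapped in WT footprints, at 47.1 and 38.9 FPKM for Aldoart2 and 37.3 and 40.2 FPKM for Eno4.

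The ratio of footprint FPKM to RNA FPKM, deposited by the authors as TE, was highest for Ldhc. It stood at 4.43 and 4.52 in Miwi-null testes and 6.36 and 5.52 in WT testes. Pdha2 was at 2.5 and 2.9 in Miwi-null testes and 2.4 and 1.85 in WT testes, Slc2a3 at 1.89 and 1.95 in Miwi-null testes and 2.36 and 2.33 in WT testes, and Eno4 at 1.29 and 1.33 in Miwi-null testes and 1.26 and 1.28 in WT testes. These 4 were above the median of all genes tested, 1.174 in Miwi-null and 1.254 in WT testes.

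The other 5 had few footprints for their RNA in both genotypes. Hk1 stood at 0.345 and 0.343 in Miwi-null testes against 0.211 and 0.245 in WT testes, and Aldoart2 at 0.191 and 0.21 in Miwi-null testes against 0.164 and 0.146 in WT testes. Aldoart1 was at 0.203 and 0.223 in Miwi-null testes against 0.282 and 0.247 in WT testes, and Gapdhs at 0.214 and 0.154 in Miwi-null testes against 0.248 and 0.299 in WT testes. Pgk2 was at 0.0514 and 0.0435 in Miwi-null testes against 0.368 and 0.332 in WT testes. Among all genes tested, the fitted ratio of Pgk2 lay at percentile 1.66 in Miwi-null and 11.9 in WT testes, and that of Aldoart2 at 7.46 in Miwi-null and 3.92 in WT testes.

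**Figure D3:**
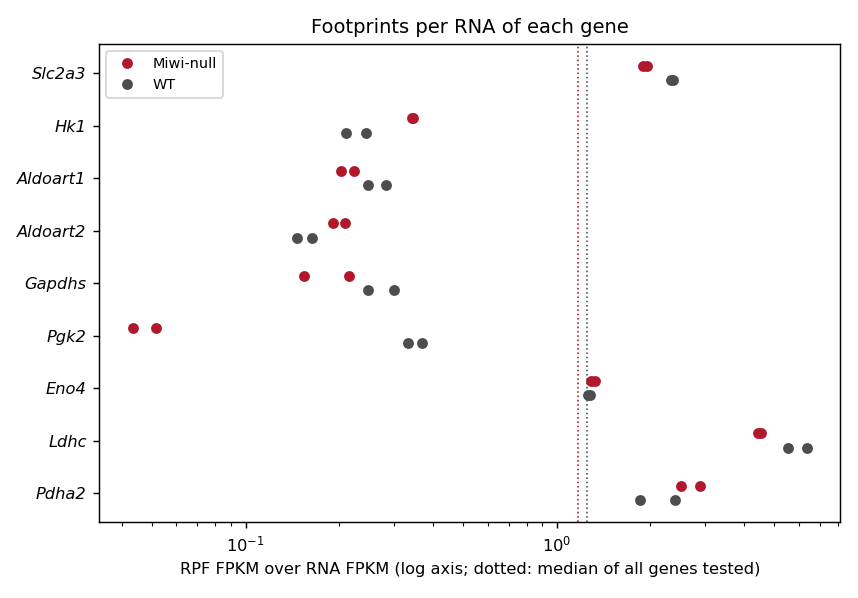
Footprint FPKM over RNA FPKM of each gene on a log axis, each point 1 replicate number, Miwi-null in red above WT in grey, with dotted lines at the median of all genes tested (1.174 in Miwi-null, 1.254 in WT). Hk1, Aldoart1, Aldoart2, Gapdhs and Pgk2 lay below both medians in both genotypes, and Pgk2 had the lowest Miwi-null points, 0.0514 and 0.0435.

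The somatic partners of these enzymes were set beside them: Slc2a1, Hk2, Aldoa, Gapdh, Pgk1, Eno1, Ldha and Pdha1 for the same reactions, and Ldhb as the other lactate dehydrogenase. All 9 were tested. Markers of some somatic testis cells moved as well. Of the Leydig markers 4 of 8 rose and 1 fell in RNA, and their footprints summed to 8083 and 9016 CPM in Miwi-null testes against 2591 and 2488 CPM in WT testes. Of the Sertoli markers 6 of 9 fell in RNA and 4 of 9 rose in TE, with sums of 1165 and 1171 CPM in Miwi-null RNA against 1616 and 1538 CPM in WT RNA. Of the myoid markers 5 of 6 fell in RNA, with sums of 131 and 128 CPM in Miwi-null RNA against 397 and 385 CPM in WT RNA. In footprints 3 of 9 Sertoli markers fell and 1 rose, 2 of 6 myoid markers fell and 0 rose, and 5 of 8 Leydig markers rose and 0 fell. Macrophage markers rose in 2 of 8 cases in RNA and 1 of 8 in footprints, and 0 fell in either. Endothelial markers fell in 2 of 6 cases in RNA and 4 of 6 in footprints, and 0 rose in either. The part of these markers in the partners' changes was not tested. The shares of all genes given next apply to these counts too. In RNA 5 of the 9 partners fell (Slc2a1, Hk2, Aldoa, Gapdh and Ldhb) and 0 rose, against 20.8% and 16.5% of all genes. In footprints 0 fell and Gapdh rose, against 13.4% and 12.0%, and in TE 0 fell and 4 rose (Hk2, Aldoa, Gapdh and Ldhb), against 7.56% and 7.36%.

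Gapdh RNA was at 147.3 and 147.1 CPM in Miwi-null testes against 234 and 212.9 CPM in WT testes, and its footprints were at 14.5 and 20.1 CPM in Miwi-null testes and 11.4 and 7.89 CPM in WT testes. Its RNA fell by 0.60 ± 0.18 on the log2 scale and its footprints rose by 0.85 ± 0.20 (edgeR adjusted p = 0.0276 and 0.0141). Gapdh has many processed copies in the genome, and how shared fragments were counted is not known here, so its levels and ratios are uncertain. The RNA call was lost without any single RNA library (0.0837 to 0.162) and with library totals alone (0.0802), and the footprint call was lost without Miwi-null RPF replicate 2 (0.0937) and with footprints fitted alone (0.0926). Pgk1, the X-linked partner of Pgk2, was at 47.3 and 33.8 CPM in Miwi-null footprints and 30.7 and 46.9 CPM in WT footprints, and these groups overlapped (log2 change 0.06 ± 0.21, adjusted p = 0.869). Ldha, the somatic lactate dehydrogenase, did not pass in RNA (0.03 ± 0.09, adjusted p = 0.795) or footprints (0.21 ± 0.09, adjusted p = 0.108). Hk2 RNA fell by 0.76 ± 0.11, Aldoa RNA by 0.66 ± 0.11, Ldhb RNA by 0.63 ± 0.09 and Slc2a1 RNA by 0.56 ± 0.16 (adjusted p = 8.09e-04, 0.00191, 7.25e-04 and 0.0246). The Slc2a1 call was lost without any single RNA library (0.0648 to 0.133), with library totals alone (0.0773) and with DESeq2 (0.0764). TE rose by 0.89 ± 0.15 for Hk2, 0.94 ± 0.15 for Aldoa, 1.45 ± 0.27 for Gapdh and 0.77 ± 0.12 for Ldhb (adjusted p = 0.00687, 0.00663, 0.0102 and 0.00516). Each of these 4 TE calls was lost in 1 to 3 of the 8 fits without a library (0.0510 to 0.0676): for Hk2 without Miwi-null RNA replicate 2, for Ldhb without Miwi-null RNA replicate 1, and for Aldoa and Gapdh without either Miwi-null RNA library or WT RNA replicate 1.

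Within a library, the FPKM of a germ cell form over that of its partner does not depend on library scaling. With 2 libraries against 2 the smallest exact p is 0.333, so these ratios are described without a test. Pgk2 footprints were 0.398 and 0.446 times those of Pgk1 in Miwi-null testes and 4.45 and 3.03 times in WT testes, while in RNA the ratios overlapped, at 20.7 and 22.6 in Miwi-null testes and 21.7 and 25.9 in WT testes. Pgk2 thus took 28.5% and 30.8% of the summed phosphoglycerate kinase footprint FPKM in Miwi-null testes and 81.6% and 75.2% in WT testes. Gapdhs over Gapdh was 1.77 and 1.78 in Miwi-null RNA against 4.1 and 4.37 in WT RNA, and 3.45 and 1.69 in Miwi-null footprints against 16.3 and 29.1 in WT footprints.

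For lactate dehydrogenase the germ cell form prevailed in both genotypes. Ldhc over Ldha was 2.99 and 2.96 in Miwi-null RNA and 2.77 and 2.96 in WT RNA, and 42.2 and 37 in Miwi-null footprints against 51.3 and 54.3 in WT footprints. Pdha2 over Pdha1 was 14.3 and 16.7 in Miwi-null footprints and 25.7 and 19 in WT footprints. Hk1 over Hk2 was 3.78 and 3.69 in Miwi-null footprints and 5.43 and 5.54 in WT footprints, and Slc2a3 over Slc2a1 exceeded 100 in each footprint library. Eno4 over Eno1 was higher in the Miwi-null libraries, at 0.946 and 0.938 in Miwi-null footprints and 0.552 and 0.618 in WT footprints. Both aldolase copies stayed below Aldoa in footprints: Aldoart2 over Aldoa was 0.169 and 0.181 in Miwi-null testes and 0.389 and 0.279 in WT testes. Aldoa was read from 1 transcript with a coding length of 1254 bases, against 1092 for Aldoart2. Forms of Aldoa were not separated, and whether that transcript is a somatic form was not examined.

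**Figure D4:**
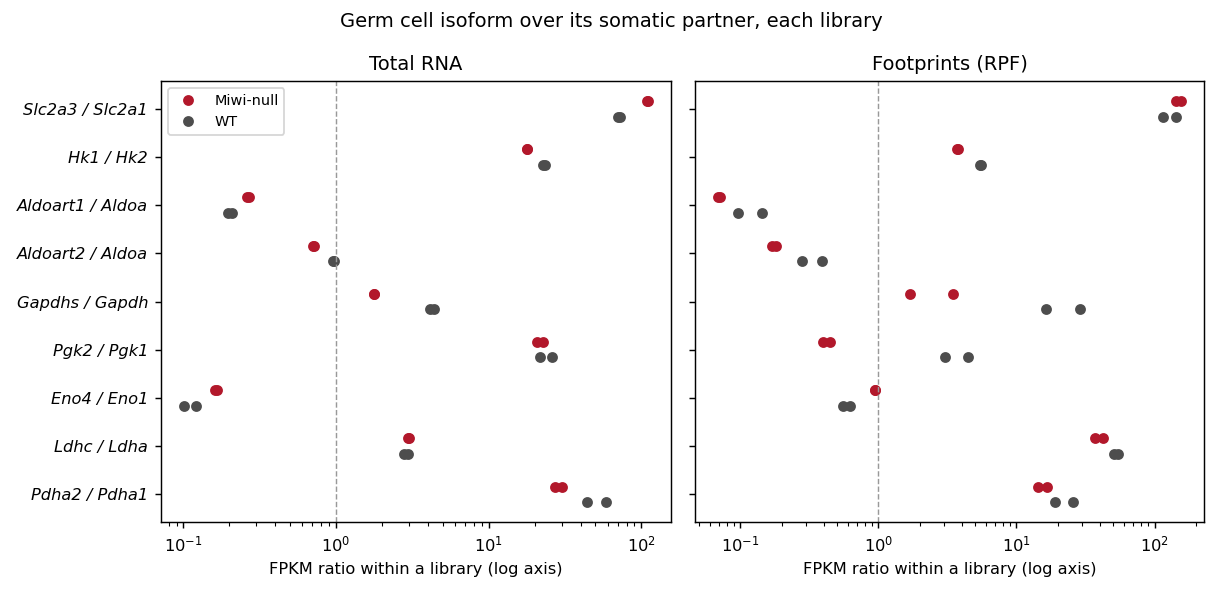
FPKM of each germ cell form over its somatic partner within each library on a log axis, total RNA on the left and footprints on the right, Miwi-null in red above WT in grey, 2 libraries per group; the dashed line marks equal levels. Pgk2 over Pgk1 overlapped between genotypes in RNA but was 0.398 and 0.446 in Miwi-null footprints against 4.45 and 3.03 in WT footprints.

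The other genes of the pathway were read from 3 lists. Of 22 other glycolysis genes 18 were tested. In RNA 7 of these fell and 4 rose (38.9% and 22.2%), in footprints 2 fell and 7 rose (11.1% and 38.9%), and in TE 0 fell and 6 rose (0% and 33.3%). Of all genes 20.8% were lower and 16.5% higher in RNA, 13.4% lower and 12.0% higher in footprints, and 7.56% lower and 7.36% higher in TE. Of the 17 tested genes of pyruvate and lactate handling 2 fell and 2 rose in RNA, 11.8% each and below those shares. In footprints 4 fell and 1 rose (23.5% and 5.88%), and in TE 1 fell and 0 rose (5.88% and 0%). Of the 10 tested hexose and glycerol genes 3 fell and 0 rose in RNA (30% and 0%), 2 fell and 2 rose in footprints (20% each), and 2 fell and 1 rose in TE (20% and 10%). The medians of the glycolysis list were -0.43 in RNA, 0.11 in footprints and 0.42 in TE, beside all-gene medians of -0.07, -0.00464 and 0.04.

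Gpi1, which turns glucose 6-phosphate into fructose 6-phosphate, fell by 1.60 ± 0.10 in RNA while its TE rose by 1.09 ± 0.13 (adjusted p = 1.08e-05 and 0.002). Its footprint change was -0.52 ± 0.09 (edgeR adjusted p = 0.00462), a call lost with footprints fitted alone (0.0606). Pgam2, a phosphoglycerate mutase, and Pfkl, a phosphofructokinase, had TE changes of 1.07 ± 0.14 and 1.02 ± 0.19 (adjusted p = 0.0025 and 0.0103). The Pfkl call was lost without Miwi-null RNA replicate 2 or WT RNA replicate 1 (TE changes of 0.92 and 0.97). RNA changed by -0.94 ± 0.10 for Pgam2 and -0.73 ± 0.14 for Pfkl (edgeR adjusted p = 1.95e-04 and 0.00347). Footprint changes of 0.14 ± 0.10 for Pgam2 and 0.29 ± 0.13 for Pfkl did not pass (0.344 and 0.1385).

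Gpd2 and Slc16a7 lost footprints beyond their RNA. Gpd2, the mitochondrial glycerol 3-phosphate dehydrogenase, was at 13.5 and 12.2 CPM in Miwi-null footprints against 107 and 106.6 CPM in WT footprints, and at 227.5 and 234.2 CPM in Miwi-null RNA against 531.4 and 511.7 CPM in WT RNA. Its footprints fell by 3.06 ± 0.10 and its TE by 1.89 ± 0.13 (edgeR adjusted p = 2.81e-07 and 1.33e-04). Slc16a7, the monocarboxylate transporter MCT2 that carries lactate and pyruvate, was at 78.9 and 64 CPM in Miwi-null footprints against 227.9 and 244.6 CPM in WT footprints, with RNA at 342.1 and 352.4 CPM in Miwi-null testes and 319.5 and 350.2 CPM in WT testes. Its footprints fell by 1.73 ± 0.12 and its TE by 1.78 ± 0.16 (adjusted p = 1.54e-05 and 5.57e-04). Gykl1, a testis glycerol kinase-like gene, followed with a TE change of -0.83 ± 0.12 (0.00409).

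Slc16a3, the lactate exporter MCT4, fell in RNA by 1.73 ± 0.20 on the log2 scale (edgeR adjusted p = 2.95e-04). Its footprint change was -1.535 ± 0.17 (edgeR adjusted p = 3.13e-04), and its TE change of 0.20 ± 0.26 did not pass (0.667). Pfkfb1, a bifunctional enzyme that sets fructose 2,6-bisphosphate, had an RNA change of 1.99 ± 0.41 and a footprint change of 1.44 ± 0.41 (adjusted p = 0.00607 and 0.0332), at 7.97 and 9.42 CPM in Miwi-null RNA and 2.75 and 1.56 CPM in WT RNA. Its RNA call was lost without WT RNA replicate 2 (0.0626), and its footprint call was lost in 5 of the 8 fits without a library, which are those without any of the 4 RNA libraries or without Miwi-null RPF replicate 2 (0.0556 to 0.226). Aldoc footprints rose by 1.22 ± 0.12 and Hk3 footprints by 1.04 ± 0.21 (adjusted p = 1.82e-04 and 0.00645), the second lost without Miwi-null RPF replicate 2 (0.0514). Eno3 RNA, of the muscle enolase, rose by 0.57 ± 0.11 and Aldoc RNA by 0.48 ± 0.15 (adjusted p = 0.00417 and 0.0343), the second lost without any single RNA library (0.0646 to 0.180), without the filter on low counts (0.0515) and with DESeq2 (0.0917).

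**Figure D5:**
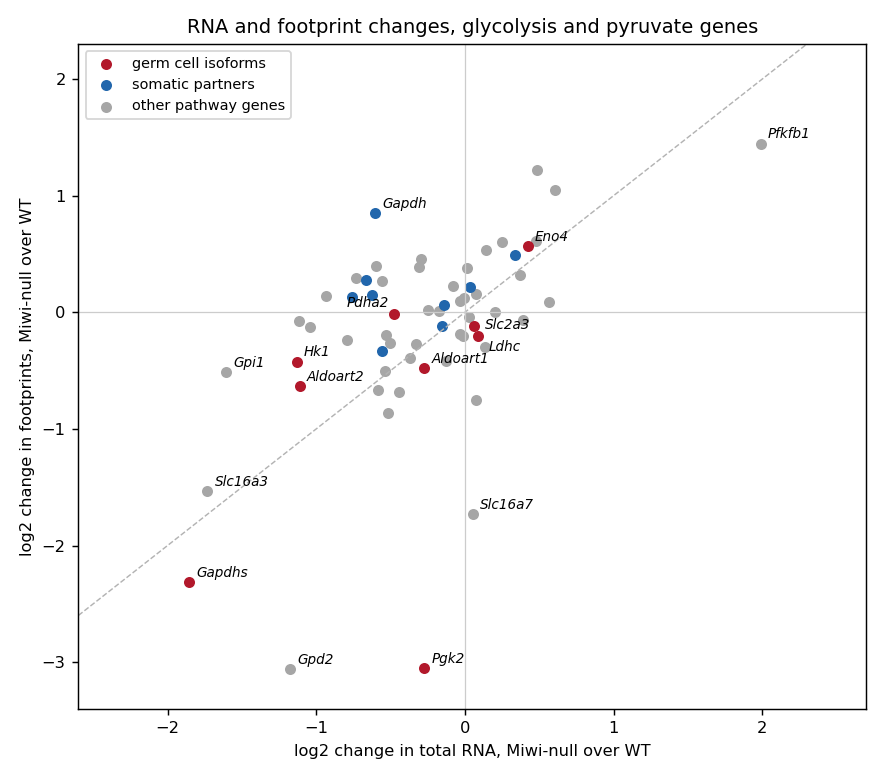
Log2 change in footprints against log2 change in total RNA, Miwi-null over WT, for the 9 germ cell genes (red), their 9 somatic partners (blue) and other pathway genes (grey); the dashed line marks equal change in both. Pgk2, Gpd2 and Slc16a7 lay well below the line, at footprint changes of -3.05, -3.06 and -1.73, while Gapdh lay above it at 0.85.

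For each of the 9 genes the nearest profiles were sought among 10171 genes with a mean of at least 10 CPM. That number includes the 9 genes, which were not taken as neighbours. The measure was the Euclidean distance of centred log2 CPM over the 8 libraries. Nearest to Pgk2 were Lrrc51 (distance 0.857), Gpd2 (0.921) and Galntl5 (0.943). Their footprint changes were -2.49, -3.06 and -4.06 and their RNA changes -0.58, -1.18 and -0.19 on the log2 scale. Nearest to Gapdhs were Txndc2 (0.488), Otub2 (0.514) and Znrf4 (0.546), with footprint changes of -2.54, -2.26 and -2.12. The distances for Pgk2 were the largest of the 9, so its profile had no close neighbour by this measure. Fbxo46 (0.313) and Pom121 (0.399) were among the 3 nearest to Hk1. Nearest to Aldoart2 was Dgkh (0.159), to Aldoart1 Atp10a (0.250), to Pdha2 Hnrnpa3 (0.207), to Ldhc Ostc (0.220) and to Slc2a3 Stk19 (0.140). Eno4 lay nearest to Prpf3 (0.207), Piwil2 (0.210) and Tdrd7 (0.222), of which Piwil2 and Tdrd7 are germ cell genes of the piRNA machinery and germ granules. The 8 libraries enter every distance, so these are descriptions of the same samples.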

How the data were processed

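Per the file headers, the authors deposited fragment counts, FPKM, a TE ratio, a fold change and its log2 per transcript. They came in 1 table per replicate number plus 1 merged table. The deposited change, not used here, was not always that of the TE ratios. For Slc2a3 in replicate 2 these were 1.95 in Miwi-null and 2.33 in WT testes, beside a deposited log2 change of 0.226. Per the submitters' processing notes, cutadapt 2.5, Bowtie 1.2.2, STAR 2.5.0a and GRCm38 were used, with no role given. The sources used here do not give the counter, its use of strand or its handling of multiply mapping fragments. The deposited TE ratio equalled RPF FPKM over RNA FPKM within 1e-8 in 100% of rows with both. Lengths were coding lengths, 84.7% being multiples of 3. Since transcripts share fragments, their summed count was 2.23 to 2.39 times that of the largest transcript per gene, and 1 transcript per gene was used.

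Counts were analysed with edgeR 4.0.16 in R 4.3.3: filterByExpr (minimum count 10, minimum total 15), TMM over all 8 libraries, and a robust quasi-likelihood fit of 4 groups with 4 residual degrees of freedom. The fit was also run on simulated data. These gave both assays the same spread, so they cannot show how reliable footprint and TE calls are. A call required an adjusted p (Benjamini-Hochberg, 16051 genes) under 0.05. Each gene has 1 dispersion for both assays, although footprint replicates spread more, so errors of footprint changes may be too small. SE are from this fit, and CPM are relative to TMM-scaled library sizes. TE changes are the interaction of genotype and assay. DESeq2 1.42.0, other scalings, filters, transcripts, a replicate block and leaving out each library were tried.

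Members and lists were chosen with earlier results of these data known. Named genes were the members, their partners, Piwil1, per contrast and direction the 3 called pathway genes with the largest change, and each member's 3 nearest profiles; a few that this rule names are not reported here. Mpc1l and Gyk were not matched. RefSeq promoter windows were matched by symbol; none is shown for Slc2a3 and Aldoart1. Replicate numbers were not taken as pairs, since the labels do not say what they share.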

Additional observations from a re-analysis of the deposited data

How the results depend on the processing

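Of the alternative values for the changes of the 9 genes, 435 kept their direction and their side of the threshold, 19 lost the call, 19 gained one and 4, all for Pdha2 footprints, changed sign without ever being called; no called change reversed. With the 4 libraries of an assay fitted alone, 6 of the 9 genes were lower and 3 higher in RNA, against 4 and 1 in the main fit. In footprints 3 were lower and 0 higher, against 5 and 1. Of all genes 9041 (RNA) and 1983 (footprints) were called, against 5986 and 4074. With library totals alone 2 of the 9 genes were lower in TE, and the median TE change of all genes was -0.0986 in place of 0.0433. Leaving out each library gave 0 to 1 of the 9 genes higher in RNA, 3 to 5 lower in footprints, 1 to 2 lower and 0 to 3 higher in TE, and 3249 to 7094, 2936 to 5169 and 622 to 3636 of all genes called in RNA, footprints and TE. The fold of Gapdhs over Gapdh in footprints was -3.15 on the log2 scale and ran from -3.75 without Miwi-null RPF replicate 1 to -2.67 without WT RPF replicate 2. The log2 ratio of footprint to RNA FPKM of Eno4 was 0.545 in Miwi-null and 0.525 in WT testes with the longest transcript. The cause of these shifts was not tested.

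A replicate block gave 1237 of all genes in TE against 2395, and moved no call of the 9 genes. It ended the RNA calls of Gapdh (adjusted p = 0.0575) and Aldoc (0.0623), the footprint call of Pfkfb1 (0.0647) and the TE call of Aldoc (0.0847). Differences between replicates 1 and 2 correlated at r = -0.00406 between the RNA groups and at -0.808 between the footprint groups. A crossed block in footprints, added after seeing the data, called 9103 genes in RNA, 8183 in footprints and 6539 in TE, with 3 of the 9 lower and 3 higher in TE.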
